A study of Mus musculus with 6 samples.

Results

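Programmed death of a cell can run through several sets of proteins, and 38 mouse genes that encode caspases, Bcl2 family proteins, calpains, Parp1 and the proteins of necroptosis and pyroptosis were followed here in the degenerating retina. In apoptosis, pro-death members of the Bcl2 family open the mitochondrial outer membrane, Apaf1 and caspase-9 assemble on released cytochrome c, and effector caspases then cut the cell's proteins. Calpains, which are proteases switched on by calcium, and the DNA damage sensor Parp1 are linked to photoreceptor death in rd1 mice, while necroptosis and pyroptosis end in the rupture of the plasma membrane. The genes were chosen by name and matched to probes with a single gene symbol, with the brightest usable probe standing for each gene. Of the 38 genes, 36 had a named probe, 30 passed a filter on dim probes, and 12046 genes of the array passed it in all.

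Central retina of rd1/rd1 mice was measured at 2 months (3 samples) and at 8 months (3 samples) on single-colour Illumina bead arrays with 45281 probes. Both ages carry the same rd1 mutation, in which loss of the rod phosphodiesterase subunit Pde6b kills rods and later cones, and no treatment is named for either, so the comparison is one of age within a degenerating retina and holds no healthy control. Each sample pooled 3 to 6 tissue punches of 1.5 mm, and whether pools shared an animal is not stated, so p-values measure only the spread between these pools. The values are on a log2 scale from 6.98 to 14.48, and every array had a median of 7.19, a level close to background at which differences are compressed. Precision is set by having 3 arrays at each age. The sample descriptions give 2 month replicates 1 and 2 the same number, so the 2 month age may hold fewer than 3 separate pools.

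Marker genes showed what else differed between the pools. Of the listed genes, 6 of 8 for bipolar cells, 8 of 8 for amacrine cells and 8 of 8 for Müller glia passed the filter, with mean levels of at least 10.60 in every sample, so the markers of retina were present. Amacrine genes averaged 10.60 to 10.68 at 2 months and 10.75 to 10.85 at 8 months. Bipolar genes averaged 11.47 to 11.50 and 11.38 to 11.43, and horizontal cell genes (2 of 4 tested) 8.98 to 9.12 and 8.76 to 8.81. Müller glia genes overlapped between ages, at 11.43 to 11.55 and 11.36 to 11.54. Cone genes (8 of 9 tested, with Opn1sw below the filter) averaged 10.14 to 10.51 in the 2 month samples and 8.70 to 9.38 in the 8 month samples. Of these 8 cone genes, 2 were higher at 8 months, Gnb3 (0.05) and Cngb3 (0.02). Adjustment over all genes was passed by 2, both lower at 8 months: Arr3 (limma adjusted p = 0.00936) and Gnat2 (limma adjusted p = 0.0169). Rod genes (6 of 9 tested, with Pde6b below the filter) averaged 8.13 to 8.43 and 7.68 to 7.90. They did not move together: 3 of the 6 were higher at 8 months, such as Gnat1 (0.15) and Nrl (0.13). The largest falls were those of Sag (−1.81) and Pde6g (−1.35). Red blood cell genes (3 of 7 tested, with Hbb-b2 and Alas2 below the filter) averaged 10.68 to 12.10 at 2 months and 9.53 to 9.61 at 8 months. Skeletal muscle genes (4 of 7 tested, with Ckm, Tnnt3 and Mybpc1 below the filter) averaged 7.38 to 9.22 and 7.33 to 7.58, and pigment epithelium genes (9 of 9) 8.74 to 9.53 and 8.27 to 8.83; 2 month replicate 2 stood highest for all 3 lists. Reactive glia genes (5 of 6 tested, with Edn2 below the filter) averaged 8.74 to 9.71 at 2 months and 9.50 to 9.62 at 8 months, with the lowest level in 2 month replicate 3. Of these 5 genes, 3 were higher at 8 months. Only Lcn2 among them passed adjustment over all genes (change 0.83, limma adjusted p = 0.0373). Lcn2 was at 7.28, 7.41 and 7.16 at 2 months and at 8.15, 8.24 and 7.96 at 8 months. In such bulk tissue, fewer cells of a type and less RNA per cell cannot be told apart.

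None of the 30 tested cell death genes differed between 2 and 8 months after adjustment over all genes (limma, Benjamini-Hochberg, threshold 0.05). Their adjusted p-values ran from 0.282 to 0.998, and over the whole array 0.224% of genes passed. At an unadjusted limma p below 0.05, 4 of the 30 were higher at 8 months, Casp1, Casp9, Capn1 and Bcl2l1, where 5.1% of all genes were higher at that limit. The 1 that was lower at that limit was Parp1, where 5.34% of all genes were lower. The ages did not overlap, with 8 months higher, for Casp1, Casp9, Capn1 and Bik, or 13.3% of the 30 against 7.45% of all genes. They did not overlap, with 8 months lower, for Apaf1, Bcl2l11 and Birc2, or 10.0% against 7.59%. With 30 genes these shares rest on 1 to 4 genes each, and no count among the 30 was tested against the rest of the array.

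The changes, given throughout as 8 months minus 2 months on the log2 scale, were small. The median over the 30 genes was −0.0076 and the median size regardless of sign 0.06, against 0.00048 and 0.06 over all tested genes. For all 30 genes the 95% interval of the change, not adjusted for the number of genes, lay within 1.5-fold in either direction, as it did for 11712 of the 12046 genes. It lay within 1.25-fold for 24 of the 30 (80%), near the share of all genes (9594 of 12046, 79.6%). The exceptions among the 30 were Casp1, Casp9, Bad, Mcl1, Parp1 and Capn2. These bounds hold on the deposited scale: 13 of the 30 genes had a probe that was not above the 75th percentile of its array on at least 3 arrays and sits where differences are compressed. All 13 were among the 24, while the 17 brighter genes gave 11.

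**Figure D1:**
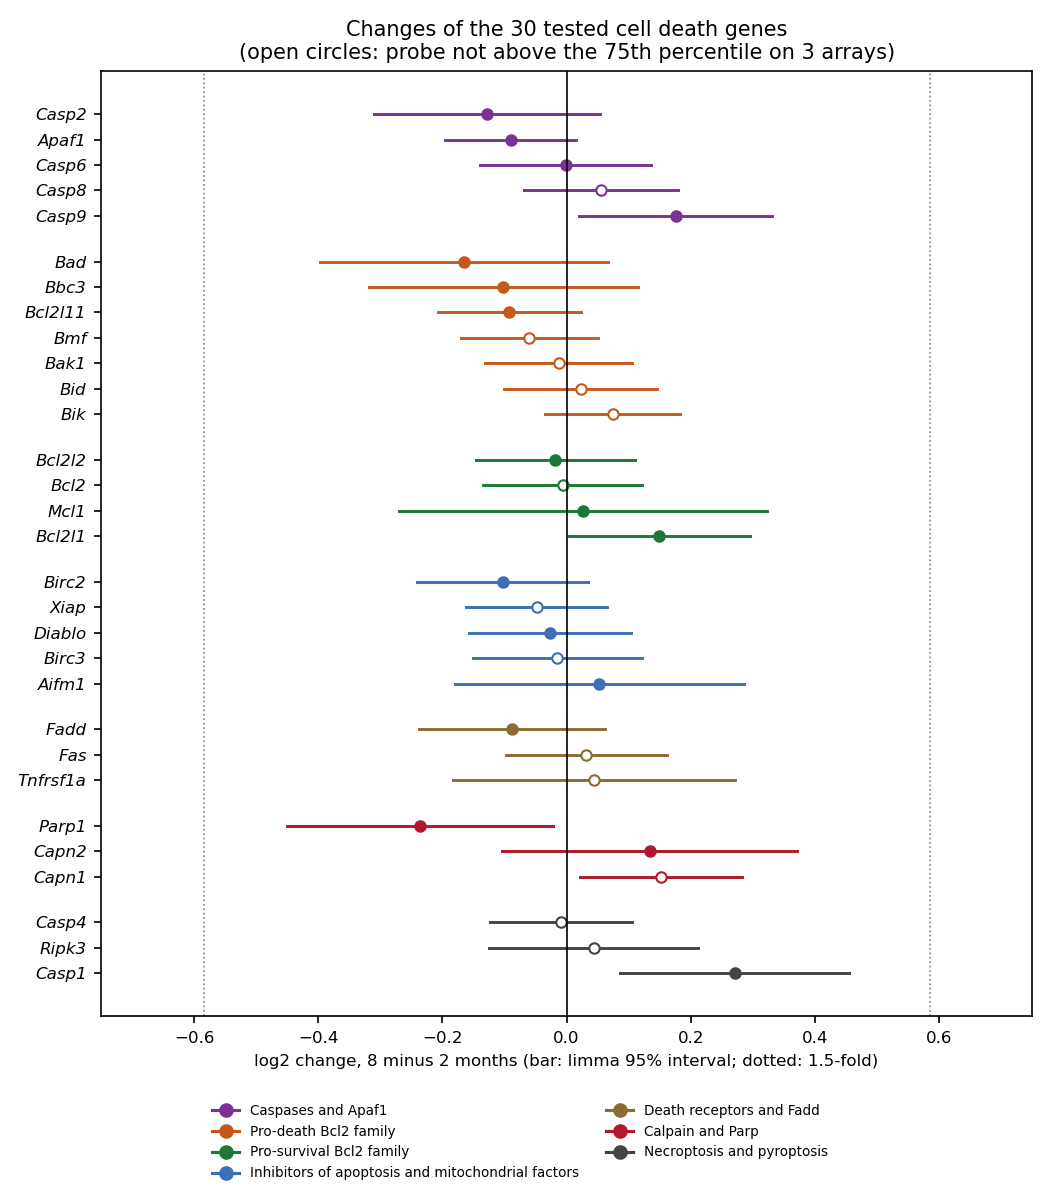
Change from 2 to 8 months (horizontal axis, log2, 8 minus 2 months) of the 30 tested cell death genes, grouped by role; points are limma estimates, bars their 95% intervals and dotted lines mark 1.5-fold. No bar reaches a dotted line, and the bars of Casp1, Casp9, Capn1, Bcl2l1 and Parp1 are the 5 that do not cross 0.

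**Figure D2:**
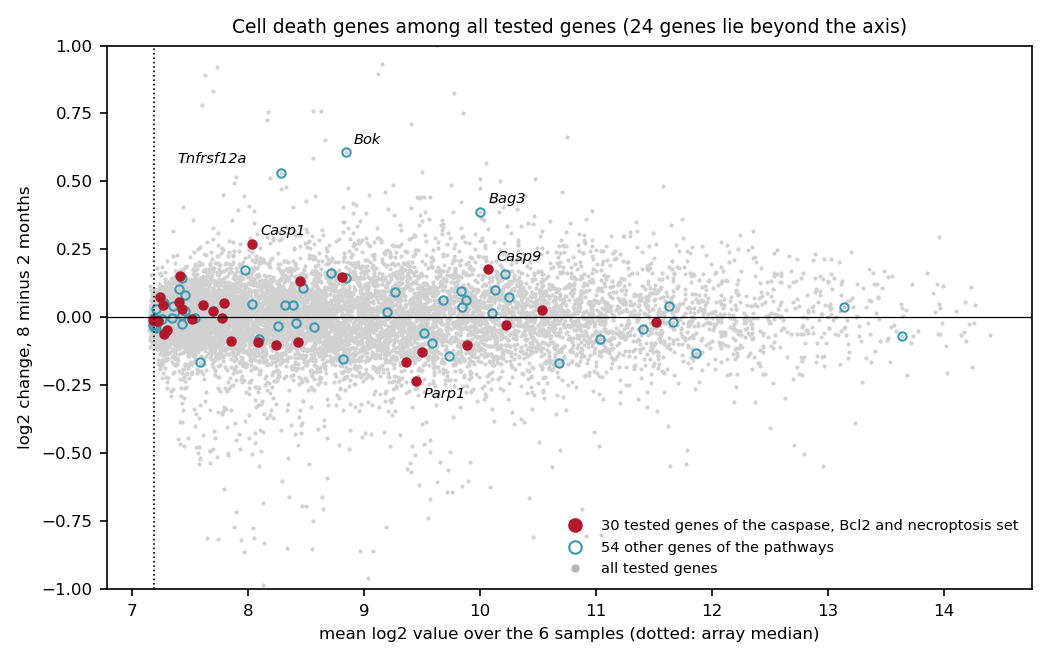
Change (vertical axis, log2) against the mean log2 value over the 6 samples (horizontal axis) for the 12046 tested genes in grey, the 30 cell death genes in red and 54 other genes of the pathways as open circles; 24 genes lie beyond the axis. The red points sit between −0.24 and 0.27, and many of them lie at the left, near the dotted array median of 7.19.

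Among the genes of necroptosis and pyroptosis, Casp1 had the smallest p of all 30. It encodes caspase-1, the protease that inflammasomes activate to mature interleukin-1 beta. Casp1 was at 7.95, 8.01 and 7.73 in the 2 month samples and at 8.19, 8.21 and 8.11 in the 8 month samples. All 8 month values therefore lay above all 2 month values, and 2 month replicate 3 was the lowest. The means were 7.90 ± 0.146 and 8.17 ± 0.0531 (SD, n = 3), a change of 0.27 (SE 0.0787, 95% interval 0.0862 to 0.455), or 1.21-fold, which did not pass (limma adjusted p = 0.282). The gene had 1 named probe, so no other probe could be set beside it.

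Casp1 is expressed in microglia, and 2 month replicate 3 was lowest for microglia genes as well, at −0.19 from the 6-sample mean. Of 15 microglia and macrophage genes listed, 11 were tested and 5 of these had positive changes; 2 others, Itgam and Ptprc, stayed below the filter. Their mean level ran from 7.74 to 8.08 at 2 months and from 7.85 to 7.97 at 8 months, ranges that overlap where those of Casp1 do not. Without 2 month replicate 3 the change of Casp1 was 0.19 (limma adjusted p = 0.282). The part of microglia in the values of Casp1 was not tested.

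The other genes of this group were close to background. Ripk3, the kinase that starts necroptosis, was at 7.28, 7.22 and 7.24 at 2 months and at 7.29, 7.42 and 7.16 at 8 months, with the 8 month samples on both sides of the 2 month ones. Its change was 0.04 (SE 0.0720, adjusted p = 0.909 by limma). Casp4, which encodes the caspase that senses bacterial lipopolysaccharide in the cytosol and lies beside Casp1 in the RefSeq annotation, was at 7.23, 7.17 and 7.17 and at 7.19, 7.13 and 7.22. The ages overlapped, with a change of −0.0091 (SE 0.0489, adjusted p = 0.977). Mlkl, the pore-forming protein of necroptosis, Nlrp3, the sensor of an inflammasome, and Pycard, its adaptor, did not pass the filter. Over all their probes and samples, Mlkl ran from 7.08 to 7.21, Nlrp3 from 7.08 to 7.20 and Pycard from 7.07 to 7.26. No probe was named for Ripk1, the kinase upstream of Ripk3, and it was not analysed here.

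The calpain and Parp genes gave changes in both directions. Parp1 encodes poly(ADP-ribose) polymerase 1, which senses DNA breaks and whose overactivation can kill cells without caspases. It was at 9.40, 9.74 and 9.55 in the 2 month samples and at 9.28, 9.29 and 9.41 in the 8 month samples. The ages overlapped by 1 sample, since 8 month replicate 3 lay just above 2 month replicate 1. The change was −0.24 (SE 0.0915, 95% interval −0.45 to −0.0216) and did not pass (limma adjusted p = 0.428). Its highest value was in 2 month replicate 2, the sample with the most red blood cell, muscle and pigment epithelium signal, at 1.71, 1.34 and 0.70 above the 6-sample mean. Without that sample the change of Parp1 was −0.15 (limma adjusted p = 0.652); the part of those tissues was not tested.

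A second bright probe of Parp1 had nearly the same change without that sample standing out. It was at 8.75, 8.63 and 8.87 at 2 months and at 8.50, 8.53 and 8.57 at 8 months, so that the ages did not overlap and 2 month replicate 2 was the lowest of its age. In the limma fit of every kept probe its change was −0.21 (SE 0.0661, limma adjusted p = 0.358). The third probe, at a mean of 7.40, had a change of −0.05 (SE 0.0623). Both bright probes thus had lower means at 8 months by similar amounts, and neither passed.

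Capn1 and Capn2 encode the large subunits of the widely expressed calpains. Capn1 was at 7.38, 7.38 and 7.27 at 2 months and at 7.44, 7.50 and 7.55 at 8 months, with no overlap. Its change of 0.15 (SE 0.0557) did not pass (limma adjusted p = 0.401), and its probe was dim. The brightest probe of Capn2 was at 8.38, 8.30 and 8.48 at 2 months and at 8.66, 8.29 and 8.60 at 8 months. Replicates 1 and 3 of the 8 month age lay above all 2 month samples and replicate 2 below them, and the change was 0.13 (SE 0.102, adjusted p = 0.747).

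The next probes of Capn2 separated the ages more clearly than the brightest one. The second was at 8.23, 8.31 and 8.29 at 2 months and at 8.62, 8.50 and 8.46 at 8 months, a change of 0.25 (SE 0.0559). It had the smallest p of the 64 kept probes of these genes in the fit of every kept probe (limma adjusted p = 0.209). The third was at 8.15, 8.12 and 7.95 and at 8.24, 8.21 and 8.41, a change of 0.22 (SE 0.0765, adjusted p = 0.429). For both, all 8 month samples lay above all 2 month samples, yet neither passed over all probes. The remaining 2 probes, at means of 7.32 and 7.20, had changes of −0.0229 and −0.0254. Cast, which encodes the calpain inhibitor calpastatin, did not pass the filter, with its 3 probes between 7.06 and 7.19. The brightest of them was at 7.16, 7.12 and 7.14 at 2 months and at 7.15, 7.14 and 7.19 at 8 months, with the ages overlapping.

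**Figure D3:**
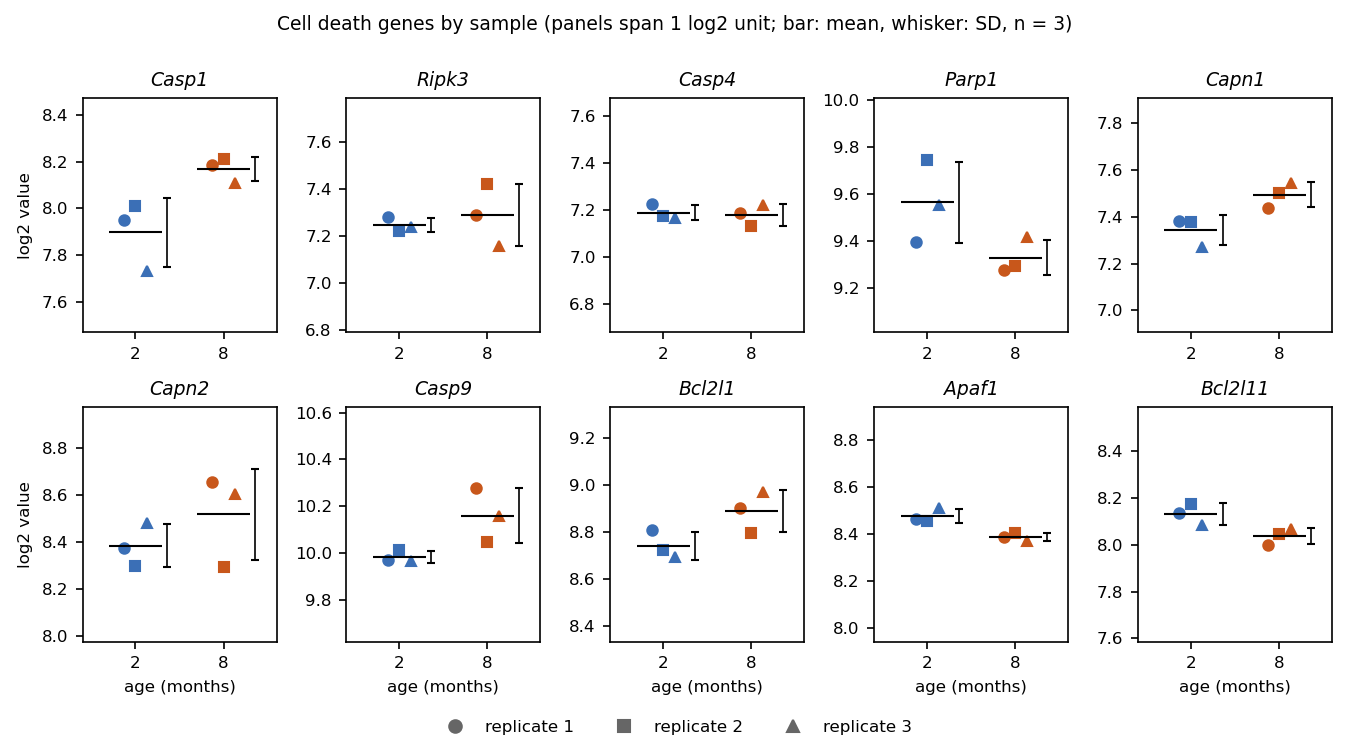
Log2 value (vertical axis, each panel spanning 1 unit) at 2 and 8 months (horizontal axis) for the 10 genes given by sample; points are single samples, with the marker shape giving the replicate, lines are means and whiskers SD, n = 3. Casp1, Capn1, Casp9, Apaf1 and Bcl2l11 show no overlap between ages, and Ripk3, Casp4, Parp1, Capn2 and Bcl2l1 do.

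Apoptosis genes made up 24 of the 30 tested, with 9 positive and 15 negative changes and a median of −0.0138. None passed (lowest adjusted p = 0.413 by limma), and at an unadjusted p below 0.05, 2 of the 24 were higher (8.33%) and 0 lower, against 5.1% and 5.34% of all genes. The initiator caspase-9 gene, Casp9, led them. It was at 9.97, 10.02 and 9.97 in the 2 month samples and at 10.28, 10.05 and 10.16 in the 8 month samples, so the ages did not overlap, with 8 month replicate 2 close to the 2 month range. Its change was 0.18 (SE 0.0663, 95% interval 0.0206 to 0.332; limma adjusted p = 0.413), and without 8 month replicate 1, its highest sample, 0.12. Its second kept probe lay at background, at a mean of 7.19, with a change of 0.0013.

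Apaf1, the scaffold on which caspase-9 is activated, had a negative change that did not pass. It was at 8.46, 8.46 and 8.51 at 2 months and at 8.39, 8.40 and 8.37 at 8 months, with no overlap but a change of only −0.09 (SE 0.0451, adjusted p = 0.574). A second bright probe gave −0.10 (SE 0.0561), and a dimmer probe 0.04. Casp2, whose caspase responds to DNA damage and centrosome defects, went from a mean of 9.56 to 9.44 with a change of −0.13 (SE 0.0774, limma adjusted p = 0.676). Casp8, the initiator caspase of death receptors and a brake on necroptosis, had means of 7.38 and 7.44 and a change of 0.06 (SE 0.0530, adjusted p = 0.812), and −0.05 at its other probe. Casp6, an effector caspase, was at 7.78 at both ages with a change of −0.0012 (SE 0.0588, adjusted p = 0.998), and −0.13 at its dimmer probe. Casp12, which lies beside Casp4 in the RefSeq annotation, did not pass the filter, with 3 probes between 7.08 and 7.19.

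Of 7 tested pro-death Bcl2 family genes, 5 had negative changes, with a group median of −0.06, and none passed. Bcl2l11, which encodes the BH3-only protein Bim, was at 8.13, 8.17 and 8.08 at 2 months and at 8.00, 8.05 and 8.07 at 8 months. All 8 month samples were lower, by a narrow margin, with a change of −0.09 (SE 0.0491, adjusted p = 0.61), and its other kept probe gave −0.07. Bad, a BH3-only protein held inactive by phosphorylation, had means of 9.45 ± 0.194 and 9.28 ± 0.0796 (SD, n = 3) and a change of −0.17 (SE 0.0990, adjusted p = 0.67). Without 2 month replicate 1 the change of Bad was −0.27 and without 2 month replicate 2 it was −0.08, so these samples set its size. Bbc3, which encodes Puma and is a target of p53, had means of 8.29 and 8.19 and a change of −0.10 (SE 0.0927, adjusted p = 0.802). Its highest value, 8.48, was in 2 month replicate 2, and without that sample the change was −0.0093.

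The other pro-death genes were dim. Bmf, a BH3-only protein released from the cytoskeleton, had means of 7.31 and 7.25 (change −0.06, SE 0.0472, adjusted p = 0.756). Bak1, which itself forms the mitochondrial pore, had means of 7.23 and 7.22 (change −0.0126, SE 0.0504, adjusted p = 0.967). Bid, which carries the death receptor signal to mitochondria, had means of 7.69 and 7.71 (change 0.02, SE 0.0526, adjusted p = 0.942). Bik had means of 7.21 and 7.28 and a change of 0.07 (SE 0.0464, limma adjusted p = 0.688). Its ages did not overlap, but only by a narrow margin (7.245 in 2 month replicate 1, 7.249 in 8 month replicate 3). Pmaip1, which encodes Noxa, did not pass the filter, with 3 probes between 7.08 and 7.20. No probe was named for Bax, the other pore-forming member, and it was not analysed here.

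Among the 4 pro-survival Bcl2 family genes, Bcl2l1 had the smallest p. It encodes Bcl-xL, a protein that holds pro-death members in check in neurons. It was at 8.81, 8.72 and 8.69 at 2 months and at 8.90, 8.80 and 8.97 at 8 months, with 8 month replicate 2 just below 2 month replicate 1. The change of 0.15 (SE 0.0623, 95% interval 0.0036 to 0.296) did not pass (limma adjusted p = 0.467). Its other kept probes had changes of −0.08 and 0.10, so probes of this gene did not share a direction. Bcl2l2, which encodes Bcl-w, had means of 11.53 ± 0.0171 and 11.51 ± 0.0792 (SD, n = 3) and a change of −0.0181 (SE 0.0548, adjusted p = 0.953), with a 95% interval of 0.903 to 1.08-fold. Mcl1, a short-lived survival protein, was the most variable of the 30, at 10.61, 10.52 and 10.44 at 2 months and at 10.25, 10.65 and 10.75 at 8 months. The 8 month values of Mcl1 lay on both sides of the 2 month values, with a change of 0.03 (SE 0.126, adjusted p = 0.975). Bcl2 itself had means of 7.52 and 7.51 (change −0.0061, SE 0.0547, adjusted p = 0.986), and only 3 of its 9 probes passed the filter.

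The inhibitors of apoptosis and the mitochondrial factors had 4 negative and 1 positive change. Birc2, the ubiquitin ligase cIAP1, was at 9.90, 10.03 and 9.90 at 2 months and at 9.85, 9.78 and 9.89 at 8 months. Its ages did not overlap, but only by a narrow margin (9.899 in 2 month replicate 1, 9.894 in 8 month replicate 3). The change was −0.10 (SE 0.0588, limma adjusted p = 0.652). The changes of its 4 kept probes ran from −0.10 to 0.02. Its neighbour Birc3, which encodes cIAP2, had means of 7.21 and 7.20, at background (change −0.0149, SE 0.0580, adjusted p = 0.966). Xiap, which blocks caspases directly, had means of 7.32 and 7.28 (change −0.05, SE 0.0485, adjusted p = 0.83). Diablo, the mitochondrial protein that relieves that block, had means of 10.23 and 10.21 (change −0.0270, SE 0.0557, adjusted p = 0.932). Aifm1, a mitochondrial flavoprotein that moves to the nucleus in caspase-independent death, had means of 7.77 and 7.82 and a change of 0.05 (SE 0.0994, limma adjusted p = 0.923).

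For each of the 3 death receptor genes the SD between the 2 month pools was larger than the change between ages. Tnfrsf1a, a receptor for tumour necrosis factor, was at 7.56, 7.80 and 7.40 at 2 months and at 7.62, 7.68 and 7.60 at 8 months, so the 2 month range enclosed the 8 month one. Its change was 0.04 (SE 0.0971, adjusted p = 0.937). Fas, the receptor for Fas ligand, had means of 7.42 and 7.45 (change 0.03, SE 0.0553, adjusted p = 0.917). Fadd, the adaptor between these receptors and caspase-8, had means of 7.90 and 7.82 (change −0.09, SE 0.0638, adjusted p = 0.731), and its probes gave changes from −0.09 to 0.03. From the 6-sample mean these 3 genes together lay at 0.10 in 2 month replicate 2 and at −0.12 in 2 month replicate 3. Reactive glia genes were likewise highest in 2 month replicate 2 (0.24) and lowest in 2 month replicate 3 (−0.74). The same held for microglia genes (0.15 and −0.19). Red blood cell genes were also highest in 2 month replicate 2, but lay at 0.29 in 2 month replicate 3. The part of those cells was not tested. Over all 30 genes, 2 month replicate 2 was the highest sample for 8 and 2 month replicate 3 the lowest for 8, where they held that place for 19.3% and 17.4% of all genes.

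Of the 30 genes, 18 had more than 1 kept probe, and in 12 of these the probes had changes of both signs. The probes that differed in sign were near background for genes such as Apaf1 and Capn2, but the bright probes of Bcl2l1, Bcl2l2 and Fadd also differed in sign. In the fit of every kept probe, 0 of 64 probes passed (limma), and 8 had an unadjusted p below 0.05, a limit met by 9.22% of all 19195 probes in that fit.

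**Figure D4:**
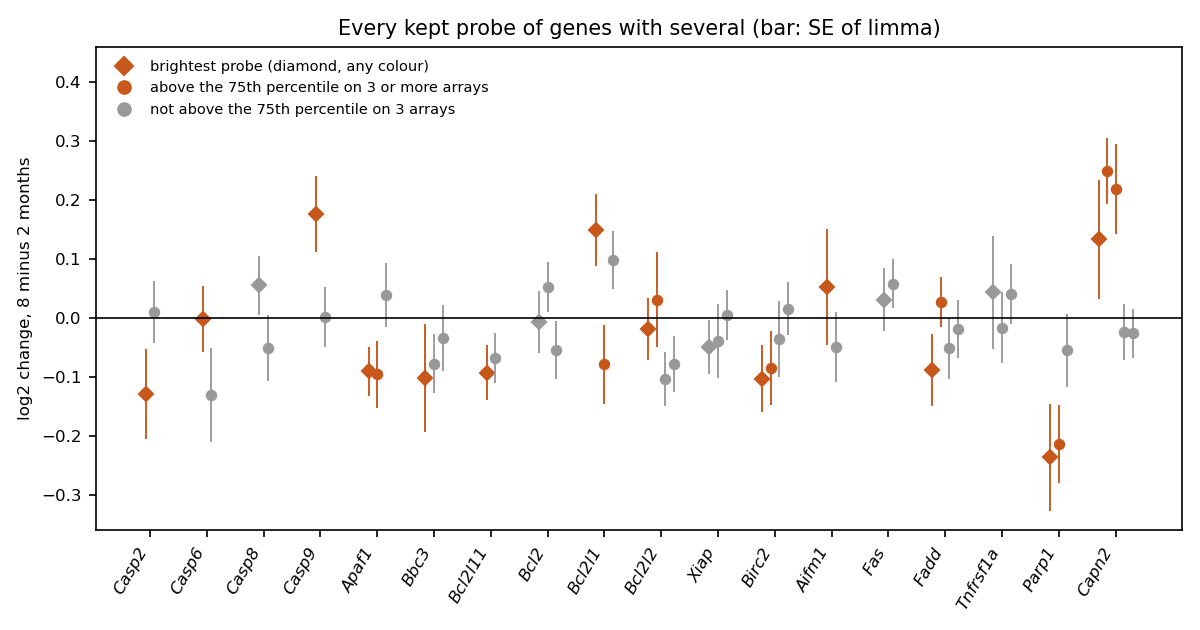
Change (vertical axis, log2, 8 minus 2 months) at every kept probe of the 18 genes with more than 1; bars are limma standard errors, diamonds mark the brightest probe, and grey marks probes not above the 75th percentile on 3 arrays. The bright probes of Parp1 lie together below 0 and those of Capn2 above 0, while those of Bcl2l1 lie on both sides.

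Other genes of these pathways were read in the same fit. Of 89 listed genes, 81 had a named probe and 54 passed the filter, with 30 positive and 24 negative changes and a median of 0.02. None passed (limma), while 6 of the 54 were higher (11.1%) and 1 lower (1.85%) at an unadjusted p below 0.05, against 5.1% and 5.34% of all genes.

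The largest differences among these genes exceeded those of the 30. Tnfrsf12a, the receptor for the cytokine TWEAK, was at 8.13, 7.89 and 8.05 at 2 months and at 8.49, 8.61 and 8.56 at 8 months, with no overlap. Its change was 0.53 (SE 0.0723, adjusted p = 0.0536 by limma), just short of the threshold. Bok, a Bcl2 family protein that can open the mitochondrial membrane without Bax or Bak, was at 8.58, 8.49 and 8.55 at 2 months and at 9.33, 9.18 and 8.94 at 8 months. Its change was 0.61 (SE 0.0955, adjusted p = 0.0845), or 1.52-fold, again with no overlap, and its dimmer kept probe gave 0.13. Tnfrsf12a passed with cyclic loess normalization (adjusted p = 0.0483), and both genes passed with a stricter filter on dim probes (adjusted p = 0.0144 for each) and with an intensity-dependent variance prior (adjusted p = 0.00289 and 0.0039). Bok also passed without 8 month replicate 3, its lowest 8 month sample (change 0.71, adjusted p = 0.0458). Neither gene passed with median centring (limma adjusted p = 0.0536 for Tnfrsf12a and 0.0842 for Bok) or a further quantile step (0.0536 and 0.0845). Those settings hardly alter the deposited values. The results of these genes with no filter, the mean of kept probes and the replicate block are not given here. Tnfrsf12a did not pass with any 1 sample left out (lowest limma adjusted p = 0.0757).

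Bag3, a co-chaperone of Hsp70 that carries damaged proteins to autophagy, was at 9.83, 9.68 and 9.92 at 2 months and at 10.26, 10.10 and 10.23 at 8 months, a change of 0.39 (SE 0.0764, adjusted p = 0.14). Traf2, an adaptor of tumour necrosis factor receptors that recruits Birc2 and Birc3, had means of 7.89 and 8.06 and a change of 0.18 (SE 0.0503, adjusted p = 0.278). Parp3, a relative of Parp1, had means of 7.37 and 7.51 and a change of 0.14 (SE 0.0550, adjusted p = 0.416). Faim2, a neuronal inhibitor of Fas signalling, had means of 10.77 and 10.60 and a change of −0.17 (SE 0.0583, adjusted p = 0.373), against 0.05 at its other kept probe. In these 4 genes the ages did not overlap, and none passed the test.

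**Figure D5:**
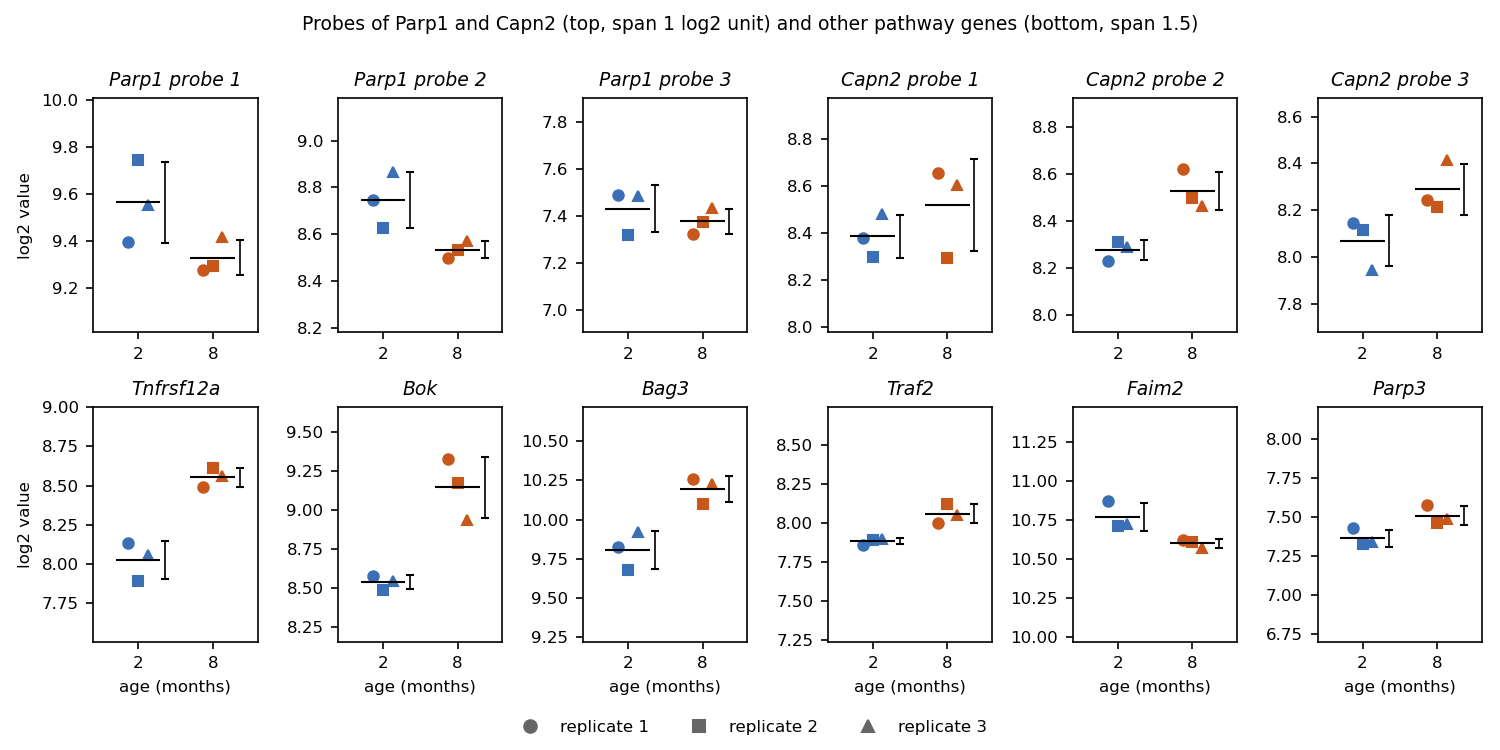
Log2 value (vertical axes) at 2 and 8 months (horizontal axis) for the 3 brightest probes of Parp1 and Capn2 (top, panels spanning 1 unit) and for the 6 other pathway genes with the smallest p (bottom, panels spanning 1.5 units); points are samples, with the marker shape giving the replicate, lines are means and whiskers SD, n = 3. All 8 month points of Tnfrsf12a, Bok, Bag3, Traf2 and Parp3 lie above, and those of Faim2 below, the 2 month points.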

How the data were processed

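RNA of 6 central retina samples was hybridised to Illumina bead arrays. The deposited values are log2 intensities, as read from their range, with no value missing among 45281 probes, and once sorted, the 6 columns differ by at most 0.00307, as quantile normalization by the authors would leave them. Whether a variance-stabilising transform was used, and which software corrected the background, is not given in the sources used here. Arrays correlated at 0.990 to 0.996 over all probes.

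Groups and replicate numbers came from the sample titles. The sample descriptions give 2 month replicates 1 and 2 the same number, so whether they are separate replicates is not settled. Their arrays correlated at 0.994, within the range of the other pairs. That value cannot settle it, since 2 month replicate 1 and 8 month replicate 2 correlated at 0.995. Averaging 2 month replicates 1 and 2 into 1 sample was an alternative chosen after seeing the data. Of the probes, 34885 had 1 gene symbol in the GEO annotation of the array, 18 several and 10378 none; RefSeq (GRCm38.p6) updated 0 symbols of the 100 probes of these genes. A probe was kept when above the 50th percentile of its array on at least 3 arrays (22458 probes), and the kept probe with the highest mean stood for its gene. Changes were tested in R 4.3.3 with lmFit and eBayes of limma 3.58.1 (4 residual and 3.31 prior degrees of freedom), two-sided, with Benjamini-Hochberg adjustment over 12046 genes and a threshold of 0.05. Standard errors and 95% intervals are limma's moderated ones. The script was tested on simulated data.

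Named with values are all tested genes of the set, with each sample for the 4 apoptosis and 3 necroptosis or pyroptosis genes of smallest p and the calpain and Parp genes, plus the 6 other pathway genes of smallest p. The values by sample of Mcl1, Birc2 and Tnfrsf1a and of further probes of Parp1 and Capn2 were added after they were seen. The genes and lists were chosen with earlier results of these data known. Alternatives were other normalizations (median centring, cyclic loess, a further quantile step), no filter, a stricter filter (75th percentile), the mean of kept probes, every kept probe, an intensity-dependent robust prior, the replicate number as a block, and leaving out each sample. Promoter sequences were not used, since no measurement here bears on them.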

Additional observations from a re-analysis of the deposited data

How the results depend on the processing

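No gene of the 30 passed under any of the 9 other settings or with any 1 sample left out (limma; smallest adjusted p of a gene 0.18, for Casp1 with the intensity-dependent prior), although the number of genes called over the whole array moved from 27 to 7 with no filter, 73 with the stricter filter, 104 with the intensity-dependent prior, 13 with every kept probe and 2 to 34 with a sample left out. Under the 8 settings that keep all samples and give 1 value per gene, all 227 changes kept their direction. Most of these could hardly have turned, so the count says little about stability. The prior and the replicate block leave each change as it is, and the stricter filter keeps the probe reported. Median centring and the further quantile step act on columns that, once sorted, already differ by at most 0.00307. The median changes moved with the stricter filter, which tests 17 of the genes, to −0.0270 (all), −0.0574 (apoptosis), −0.0512 (calpain and Parp) and 0.27 (necroptosis and pyroptosis, 1 gene). With no filter, those of calpain and Parp and of necroptosis and pyroptosis were 0.0764 and 0.0149, and the calpain and Parp median was −0.0229 over every kept probe. Among the other pathway genes, 1 was called higher with cyclic loess, 2 with the stricter filter and 2 with the intensity-dependent prior; the cause was not tested. Leaving out 1 sample gave 0 to 1 such calls, and medians of −0.0220 to 0.0036 (all genes), −0.0335 to 0.0017 (apoptosis), 0.0647 to 0.148 (calpain and Parp) and 0.0157 to 0.205 (necroptosis and pyroptosis). With the brightest probe chosen anew each time, it turned the direction of 15 genes. For Casp8 and Fadd the sign turned only because another probe was chosen: the ranges were −0.0717 to 0.0766 and −0.145 to 0.0461, but 0.0144 to 0.0766 and −0.145 to −0.0379 on the probe reported. The other 13 turned on the probe reported, with ranges of −0.0320 to 0.0517 (Casp6), −0.0354 to 0.0143 (Bak1), −0.0139 to 0.0438 (Bid), −0.0351 to 0.0307 (Bcl2), −0.0570 to 0.0221 (Bcl2l2), −0.0743 to 0.177 (Mcl1), −0.0661 to 0.0161 (Birc3), −0.0701 to 0.0029 (Diablo), −0.0202 to 0.155 (Aifm1), −0.0086 to 0.0723 (Fas), −0.0483 to 0.150 (Tnfrsf1a), −0.0226 to 0.110 (Ripk3) and −0.0206 to 0.0157 (Casp4, where it passed the filter). With 2 month replicates 1 and 2 averaged (chosen after seeing the data), 0 of the 30 were called, the smallest adjusted p was 0.366, 2 genes were called over the whole array, and Bcl2 turned to 0.0067. Same-numbered samples by the titles of the 2 ages deviated together at 0.0239, 0.139 and 0.160 (correlation of deviations from the age means), and each of the 3 correlated best with its own number, which is a hint from the data and not the design. With the replicate block 0 of the genes were called, and 32 over the whole array. The medians (−0.0076 over all 30) cannot differ from those without it, since each number occurs once at each age. Low signal limits what can be read for the 13 dim genes and the 6 below the filter. Dim is meant here by percentile of the array, and no separate measure of background was used.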
